A study of Mus musculus with 6 samples.

Results

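Microglia that carried almost none of 6 disease-associated genes were compared between the cerebral cortex of Nodal iPCKO mice and of Nodal lox/lox control mice at postnatal day (P) 12. These cells were chosen by their own counts of unique molecular identifiers (UMIs, each standing for 1 captured transcript): a barcode entered with at least 1500 UMIs, a mitochondrial share of at most 17%, at least 4 of Csf1r, C1qa, Cx3cr1, Tmem119, P2ry12, P2ry13, Siglech and Selplg detected, at most 1 UMI over Cldn5, Aqp4, Kcnj8 and Mrc1, and fewer than 2 of Axl, Clec7a, Itgax, Cst7, Lpl and Spp1 detected. The rule found 1557 cells, 693 in the control library and 864 in the iPCKO library, among 7765 cells of both libraries that passed the limits on UMIs and mitochondrial share. They are called members here.

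The control library came from Nodal lox/lox pups, whose Nodal gene carries loxP sites and which have no Cre. The iPCKO library came from pups with the same lox/lox alleles and the Pdgfrb(BAC)-CreERT2 transgene, in which a tamoxifen-dependent Cre recombinase is driven by regulatory DNA of Pdgfrb, a receptor gene of pericytes and other mural cells. Pups of both genotypes received 50 µg tamoxifen on each day from P1 to P3, so that tamoxifen is shared by the groups while the transgene is carried by iPCKO mice only. Cells of 2 mice, of either sex, were pooled into 1 library per genotype after perfusion, removal of the meninges, enzymatic digestion and removal of myelin debris. With 1 library per genotype no difference can be tested against the spread between animals, and genotype, transgene and library cannot be told apart. All intervals below are exact 95% intervals that cover counting error only.

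Microglia are the resident macrophages of the brain. In the resting or homeostatic state they express purinergic receptors such as P2ry12, the fractalkine receptor Cx3cr1 and the growth factor receptor Csf1r, and they depend on transforming growth factor beta (TGF-beta) signals from their surroundings to keep this state. When they meet damage they can lower these genes and switch on a disease-associated program with Axl, Clec7a, Itgax, Cst7, Lpl and Spp1, and type I interferon or inflammatory signals can add programs of their own. Nodal is a secreted ligand of the TGF-beta superfamily that acts through activin receptors and a co-receptor, Tdgf1 or Cfc1.

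Members made up 93.0% (90.9 to 94.7%) of the 745 microglia of the control library and 69.3% (66.6 to 71.8%) of the 1247 microglia of the iPCKO library. These shares follow from the rule and are given as a description. Detection of a gene depends on depth, and with every cell thinned to 1500 UMIs the same limit on the 6 genes kept 99.1% of control and 90.7% of iPCKO microglia, as means of 20 random draws that ranged from 98.5 to 99.9% and from 89.8 to 91.7%. Just inside the limit, with 1 of the 6 genes detected, were 212 control and 465 iPCKO cells. In the control library that gene was most often Lpl (63.7% of these cells), a lipoprotein lipase, and in the iPCKO library most often Axl (66.2%), a receptor tyrosine kinase for apoptotic cells. Just outside it, with 2 of the 6 detected, were 41 control and 245 iPCKO cells, of which 78.0% and 91.4% had Axl. Summed over the members, Axl was at 19.3 CPM (15.4 to 23.9) in the control and 149.9 CPM (139.6 to 161) in the iPCKO library, in counts per 1e6 UMIs (CPM), so a larger part of the iPCKO members sat next to the limit. For this reason the 481 control and 399 iPCKO members with none of the 6 genes are given as a stricter set beside most of the results for gene lists.

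P2ry12, Cx3cr1, Siglech and Tmem119 are among the microglia genes by which the rule chose members. Their detection follows in part from the rule, so it is given as a description and not as a test of identity. P2ry12 was found in 99.9% of control and 99.8% of iPCKO members, Cx3cr1 in 99.7% and 99.3%, Siglech in 99% and 97%, and Tmem119 in 91.6% and 86.3%. Depth was close between the libraries, with a median of 5909 UMIs per control and 5821 per iPCKO member and sums of 4302357 and 5251467 UMIs. The median mitochondrial share was 4.79% and 5.35%. Defining markers of monocytes summed to 12.1 and 8.28 CPM, those of neutrophils to 1.39 and 0.0952 CPM and those of T or NK cells to 5.35 and 4.57 CPM. Markers of other brain cells were higher: those of astrocytes summed to 212 and 193 CPM, of endothelial cells to 105 and 84.1 CPM, of neurons to 34.1 and 68.8 CPM, of the oligodendrocyte lineage to 478 and 65.5 CPM and of pericytes, Pdgfrb included, to 31.3 and 279 CPM. Markers of border-associated macrophages, of which the rule limits Mrc1 alone, summed to 70.8 and 84.3 CPM. The most widely seen of them was in 16.2% and 19.0% of members. The libraries shared 21 of their cell barcodes, 3 and 2 of them in members, and none was a member in both.

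A few members did not look like microglia. In 2 control and 5 iPCKO members, UMIs of marker genes of astrocytes, neurons, the oligodendrocyte lineage, endothelial cells, pericytes and border-associated macrophages outnumbered those of the 8 microglia genes. The largest control member, with 29275 UMIs, had 6 UMIs over 4 of the 8 microglia genes and 443 of the 452.5 UMIs of Cldn11, a myelin tight junction gene, of all control members. Results that rest on such cells are named as they come.

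Nodal itself was at 80.1 CPM in 340 control and 0 CPM in 490 iPCKO pericyte-like cells (picked by pericyte markers other than Pdgfrb), 185 UMIs against 0, so the labels and the targeted gene go together. Members had 0 UMIs of Nodal in the control and 1 UMI in the iPCKO library.

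To ask what differed in the members, UMIs were summed over members per library and 8517 genes with at least 100 UMIs over both libraries were compared as the log2 ratio of CPM, iPCKO over control. Of these, 345 (4.05%) were past 1.5-fold higher and 332 (3.9%) past 1.5-fold lower in iPCKO members, and past 2-fold were 112 (1.32%) and 58 (0.681%). The median over all genes was -0.03. These shares and this median are the background for the counts and medians of each gene list below. For 124 of the higher and 70 of the lower genes the whole counting interval lay beyond 1.5-fold. Barcodes with 10 to 100 UMIs hold mostly free RNA. In the iPCKO library 198 of the higher genes lay above their level in such barcodes. So did 156 of the lower genes in the control library. For 51 of the genes past 1.5-fold, 1 cell held more than 20% of the UMIs in the library where the gene was higher. In the stricter set 6498 genes were counted, 189 (2.91%) past 1.5-fold higher and 185 (2.85%) lower, with a median of -0.003.

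Leaving out the genes of the rule, the 12 genes with the highest lower bound were Pdgfrb, Ptgds, Cd69, Nnat, Col1a2, Igf2, Oasl2, Ifi27l2a, Vtn, Col1a1, Slfn5 and Cp, and the 12 with the lowest upper bound included Mal, Mobp, Ugt8a, Mog, Tspan2, Cldn11, Tubb4a, Nfasc, Mbp, Car2 and Slc15a2. Of these 12, 11 are genes of oligodendrocytes or of myelin, and each had between 72.7% (Nfasc) and 99.7% (Ugt8a) of its control UMIs in the largest control member described above. Among the 12 higher genes, Ptgds had 90% of its iPCKO UMIs in 1 cell, Nnat 67.9%, Igf2 62.7%, Vtn 55.7%, Col1a1 50.5% and Col1a2 46.6%. Without the 7 members led by markers of other cells, Ptgds was at a log2 ratio of 0.83, Col1a1 at 0.12, Igf2 at 0.45, Nnat at 3.15, Col1a2 at 1.46, Vtn at -0.90, Mobp at -0.28, Mbp at 0.14 and Ugt8a at 0.30. These 17 genes are not described as genes of microglia.

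Without those 7 cells, a choice made after seeing the data, no leading gene had more than 17.3% of its UMIs in 1 cell. On the higher side stood Pdgfrb, Cd69, Oasl2, Ifi27l2a, Slfn5, Cp, Rtp4, Cybb, Ifitm3, Itgal, Ehd1 and Nr4a3. Oasl2, Ifi27l2a, Slfn5, Rtp4 and Ifitm3 belong to the interferon response, Cybb encodes the catalytic subunit of the phagocyte NADPH oxidase, Itgal the alpha chain of the integrin LFA-1, Cp the ferroxidase ceruloplasmin, Ehd1 an endocytic recycling protein and Nr4a3 an inducible nuclear receptor. Cybb was at 9.14 CPM in control and 46.5 CPM in iPCKO members, which is 2.33 (1.85 to 2.87) as a log2 ratio. Itgal was at 3.98 and 21.6 CPM, and a UMI was found in 1.3% and 9.9% of cells. Cp was at 2.58 and 19.1 CPM (log2 ratio 2.83 (1.99 to 3.94)), Ehd1 at 11 and 46.5 CPM, a ratio of 2.06 (1.62 to 2.56) and Nr4a3 at 7.97 and 34.9 CPM, a ratio of 2.11 (1.6 to 2.7). Cd69, an activation antigen of leukocytes, had 1 UMI over the control members and 110 over the iPCKO members, where 3.96% of cells had it and 1 cell held 17.3% of its UMIs.

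On the lower side stood Slc15a2, Syt6, Khdrbs3, Klf12, Myo18b, Ppm1l, Crybb1, Adamts16, Sgk1, Fcrls, Pacsin1 and Ptprz1. Slc15a2, a proton-coupled peptide transporter (chromosome 16 from 36570475 to 36605334 of GRCm39), was at 69.4 CPM (61.8 to 77.8) in control and 16.8 CPM (13.4 to 20.6) in iPCKO members, and the share of cells with a UMI was 27.1% (23.8 to 30.6%) against 7.99% (6.27 to 10%). Its log2 ratio was -2.05 (-2.41 to -1.70) in members and -2.73 (-3.44 to -2.13) in the stricter set. It was -2.71 in disease-associated-like microglia (at least 2 of the 6 genes), -1.28 in endothelial-like and 0.03 in astrocyte-like cells, the group with the most UMIs of this gene. Klf12, a transcriptional repressor, was at 31.4 and 8.1 CPM, a ratio of -1.94 (-2.49 to -1.45), and Khdrbs3, an RNA-binding splicing regulator, at 37.3 and 9.26 CPM, a ratio of -2.0 (-2.51 to -1.54). Syt6, a synaptotagmin, was at 28 and 5.85 CPM, a ratio of -2.24 (-2.91 to -1.69).

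**Figure D1:**
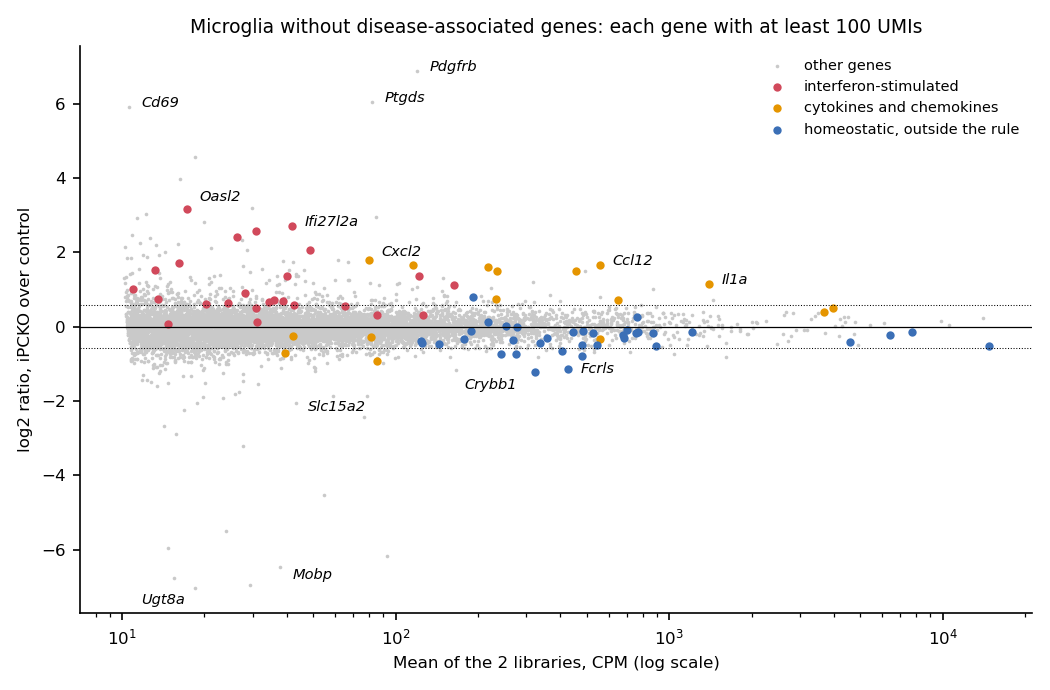
Log2 ratio (iPCKO over control, vertical) of each of the 8517 counted genes against its mean level (CPM, log scale, horizontal), with 3 gene lists in colour and dotted lines at 1.5-fold. All 25 counted interferon-stimulated genes lie above 0, cytokines and chemokines such as Cxcl2, Ccl12 and Il1a lie past 1.5-fold higher, and the grey points far below 0 such as Mobp and Ugt8a are the myelin genes carried by 1 control cell.

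Pdgfrb, the platelet-derived growth factor receptor of mural cells, had the highest lower bound of all genes. Control members had 8.25 UMIs in all and iPCKO members 1248, or 1.92 CPM (0.803 to 3.66) against 238 CPM (225 to 251), which is 6.87 (6.01 to 8.21) as a log2 ratio. A UMI was found in 1.01% (0.407 to 2.07%) of control and 68.3% (65.1 to 71.4%) of iPCKO members, and no iPCKO cell held more than 0.721% of the UMIs. The share of cells with other pericyte genes was not higher: the share of members with a UMI was 11.8% and 7.99% for Rgs5, 2.02% and 1.5% for Abcc9, 0.289% and 0.231% for Kcnj8 (which the rule limits) and 1.59% and 1.04% for Vtn, and Higd1b had no UMI in either library. The summed level of Vtn, 2.56 and 21.9 CPM, was higher, with the 55.7% in 1 cell given above. Barcodes with 10 to 100 UMIs, which hold mostly free RNA, had 76.2 CPM of Pdgfrb in the control and 283 CPM in the iPCKO library. Free RNA was estimated at 2.54% and 2.75% of the members' UMIs. Subtracting it left no Pdgfrb in control members, so the wider ratio that followed rests on the offset of 0.5 UMIs. Pdgfrb was also higher in disease-associated-like microglia (14.1 and 170.3 CPM), astrocyte-like cells (33.1 and 99.7 CPM), endothelial-like cells (2.15 and 7.84 CPM) and pericyte-like cells (689 and 1876 CPM). The iPCKO mice carry the Pdgfrb(BAC)-CreERT2 transgene and the controls do not, and UMIs counted on the Pdgfrb gene cannot tell transcripts of a transgene built from Pdgfrb DNA from those of the endogenous gene. Within 200 kb of Pdgfrb, Csf1r had a log2 ratio of -0.20 (-0.23 to -0.17), Slc26a2 of 0.08 (-0.10 to 0.26), Tcof1 of 0.22 (-0.03 to 0.49) and Camk2a of 2.46 (1.69 to 3.43), the last seen in 2.02% and 6.25% of members, with 35.1% of its iPCKO UMIs in 1 cell.

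Interferon-stimulated genes were higher in iPCKO members. Of 43 listed genes found in the files, 25 were counted: 18 were past 1.5-fold higher, none was past 1.5-fold lower, and all 25 had a ratio above 0, with a median log2 ratio of 0.73 against -0.03 over all genes. The 18 genes under the count minimum summed to 25.5 CPM in control and 141.9 CPM in iPCKO members. Oasl2 (chromosome 5 from 115034997 to 115050295 of GRCm39), a relative of the antiviral oligoadenylate synthetases, was at 3.37 CPM (1.95 to 5.75) in control and 31 CPM (26.5 to 36.2) in iPCKO members, which is 3.16 (2.39 to 4.02) as a log2 ratio. Ifi27l2a (chromosome 12 from 103399975 to 103409950), a small mitochondrial protein gene induced by interferon, was at 10.9 CPM (8.03 to 14.5) and 72.6 CPM (65.4 to 80.2), which is 2.72 (2.29 to 3.20) as a log2 ratio. Slfn5, a nuclear Schlafen protein, was at 8.83 CPM (6.25 to 12.1) and 52.7 CPM (46.7 to 59.3), which is 2.56 (2.09 to 3.11) as a log2 ratio. These 3 genes were named for the lower bound of their ratio, so the gap between the intervals of the 2 libraries follows from that choice.

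Rtp4, a receptor transporter protein, was at 8.24 CPM (5.67 to 11.3) in control and 44.5 CPM (39 to 50.6) in iPCKO members (2.42, 1.94 to 3.01), and a UMI was seen in 4.18% and 15.4% of cells. Ifitm3, a membrane protein that restricts viral entry, was at 18.8 CPM (15 to 23.4) and 78.5 CPM (71.1 to 86.4), which is 2.05 (1.71 to 2.42) as a log2 ratio. Slfn2, a Schlafen gene of leukocytes, was seen in 22.9% (19.9 to 26.3%) of control and 46.3% (42.9 to 49.7%) of iPCKO members. Closer to 1.5-fold were the genes of the signalling chain itself: Stat2, a transcription factor of the type I response, had a log2 ratio of 0.73 (0.41 to 1.07) and Irf9, a DNA-binding subunit that joins it, of 0.32 (0.11 to 0.52). Lgals3bp (1.12), Oas1a (1.52), Sp100 (1.36), Ifih1 (0.92), Ifitm2 (1.02), Parp14 (0.67), Xaf1 (0.65), Ifi35 (0.62), Phf11b (1.72) and Phf11d (0.73) were also among the 18 genes. Phf11b and Phf11d, and Ifitm2 and Ifitm3, are close relatives between which shared reads were divided by an estimate.

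Several well-known members of the response stayed under the count minimum and had low levels in both libraries. Ifit3 was at 1.39 and 15.3 CPM, Ifit2 at 1.16 and 12.2 CPM, Isg15 at 2.79 and 14.3 CPM and Irf7 at 2.09 and 8.19 CPM in control and iPCKO members. Isg15 was seen in 1.44% and 5.44% of cells. Part of the cells carried these UMIs. With every member thinned to 1500 UMIs in 1 random draw, at least 3 UMIs of the list were present in 11.4% (9.13 to 14%) of control and 31.7% (28.6 to 34.9%) of iPCKO members, the mean was 1.17 and 2.27 UMIs per cell, and 38.7% and 23.7% of cells had none.

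The group was also read in the stricter set. Among members with none of the 6, 14 of the listed genes were counted, 4 of them past 1.5-fold higher and none lower, with a median of 0.40. Oasl2 (1.82, 0.65 to 3.25), Slfn5 (1.71, 0.92 to 2.61), Ifi27l2a (1.69, 1.11 to 2.32), Rtp4 (1.32, 0.59 to 2.15) and Slfn2 (1.14, 0.85 to 1.44) were still higher, while Xaf1 (-0.08, -0.76 to 0.58) had a ratio just under 0. Oasl2, with 8 and 22 UMIs, Slfn5, Rtp4 and Xaf1 were under the count minimum in this set. Axl, the gene found in 308 of the 465 iPCKO members left out of it, is itself known as a gene that interferon can induce.

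Transcription of many of these genes runs through the interferon-stimulated response element, to which factors such as Stat2 and Irf9 are recruited. The letters GAAANNGAAA, searched on both strands, were present in the RefSeq promoter window (250 bases before to 50 after the gene start, build GRCm38.p6) of 1079 of 27025 genes, 3.99%. Of the 18 genes past 1.5-fold, 14 had a window in the table and 7 of these (50%) held the letters, against 19 of 34 (55.9%) over all genes of the list with a window, so the share was not higher among the genes past 1.5-fold than in the list. A match is a description of the sequence and not a measured site. The windows of the 3 matching genes with the highest lower bound are shown to let the element be seen in place, with matches in capitals, 5′ to 3′ on the strand of the gene.
Slfn5 (chr11:82951852-82952151, plus strand): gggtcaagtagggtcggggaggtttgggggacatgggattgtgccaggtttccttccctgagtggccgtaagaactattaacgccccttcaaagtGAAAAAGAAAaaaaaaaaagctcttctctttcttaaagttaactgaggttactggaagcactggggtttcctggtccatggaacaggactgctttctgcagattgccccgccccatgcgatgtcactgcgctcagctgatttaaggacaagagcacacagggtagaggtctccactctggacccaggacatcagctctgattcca
Ifitm3 (chr7:141010695-141010994, minus strand): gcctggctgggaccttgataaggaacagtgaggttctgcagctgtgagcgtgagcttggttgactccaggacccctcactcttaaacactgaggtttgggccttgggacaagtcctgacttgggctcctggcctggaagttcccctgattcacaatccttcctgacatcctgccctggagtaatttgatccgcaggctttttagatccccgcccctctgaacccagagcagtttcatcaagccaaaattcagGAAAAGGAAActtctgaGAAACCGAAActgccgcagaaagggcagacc
Phf11b (chr14:59341281-59341580, minus strand): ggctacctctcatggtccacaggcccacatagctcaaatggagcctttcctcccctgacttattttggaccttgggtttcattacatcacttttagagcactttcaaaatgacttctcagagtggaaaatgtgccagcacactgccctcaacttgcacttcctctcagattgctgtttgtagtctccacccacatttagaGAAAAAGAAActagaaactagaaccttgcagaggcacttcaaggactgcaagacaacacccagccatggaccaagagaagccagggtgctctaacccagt
The match starts 155 bases before the gene start in Slfn5 and 50 bases before it in Phf11b, and in Ifitm3 there are 2 matches, 2 and 19 bases after the start. The window of Oasl2, the gene with the widest ratio, does not hold these letters.

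Inflammatory cytokines and chemokines were higher for most of the counted genes, and their sum went from 9784 CPM to 15079 CPM. Of 16 counted genes, 9 were past 1.5-fold higher and 2 past 1.5-fold lower, with a median log2 ratio of 0.73. Il1a (chromosome 2 from 129140291 to 129152098 of GRCm39), the alarmin interleukin 1 alpha, was at 866 CPM (838 to 894) in control and 1923 CPM (1885 to 1960.4) in iPCKO members, a ratio of 1.15 (1.10 to 1.21), and was found in 77.9% and 90.5% of cells. Il1b, the secreted interleukin 1 beta, was at 108 CPM (98.5 to 118) and 328 CPM (312 to 343), which is 1.6 (1.45 to 1.75) as a log2 ratio, and Tnf, tumour necrosis factor, at 493 CPM (472 to 514) and 810.1 CPM (786 to 835), which is 0.72 (0.64 to 0.79) as a log2 ratio. All 3 of these cytokines were thus higher in the iPCKO library, Tnf the least.

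Among the chemokines, Ccl12 (chromosome 11 from 81992645 to 81994466), a ligand of Ccr2, was at 268 CPM (253 to 284) and 847 CPM (822 to 872), which is 1.66 (1.57 to 1.75) as a log2 ratio and Cxcl16, a membrane-bound chemokine, at 55.6 CPM (48.7 to 63.1) and 175 CPM (164 to 187), which is 1.66 (1.45 to 1.87) as a log2 ratio. Cxcl10, which interferon induces, was at 238 CPM (224 to 253) and 671 CPM (649 to 694), which is 1.49 (1.39 to 1.6) as a log2 ratio, seen in 17.2% and 31.1% of members. Cxcl2, a neutrophil attractant, was at 35.8 CPM (30.4 to 41.9) and 124 CPM (114 to 133), which is 1.79 (1.53 to 2.05) as a log2 ratio and was seen in 4.91% and 8.8% of cells. Csf1, the growth factor that feeds Csf1r, was at 123 CPM (113 to 134) and 347 CPM (332 to 364), which is 1.49 (1.36 to 1.64) as a log2 ratio, and Ccrl2, a chemokine-presenting receptor, had a ratio of 0.74 (0.61 to 0.87). Not every chemokine was higher: the abundant Ccl3 (0.39, 0.36 to 0.42) and Ccl4 (0.50, 0.47 to 0.53) stayed within 1.5-fold, Ccl2 was at 623 and 497 CPM, a ratio of -0.33 (-0.41 to -0.25), and Ccl7 (-0.93, -1.14 to -0.72) and Ccl6 (-0.70, -1.01 to -0.39) were past 1.5-fold lower.

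Among members with none of the 6, the list had a median of 0.31, with 7 of 16 counted genes past 1.5-fold higher and 2 lower. Il1b (1.32, 1.10 to 1.55), Ccl12 (1.32, 1.19 to 1.46), Cxcl16 (1.20, 0.90 to 1.51) and Il1a (1.04, 0.96 to 1.12) had ratios above 1, whereas Tnf was at 0.39 (0.28 to 0.51) and Ccl4 at 0.12 (0.07 to 0.16). Per 1500 UMIs the list had a mean of 13.8 UMIs in control and 20.2 in iPCKO members. Digestion of fresh tissue with enzymes can itself induce such genes in microglia, and both libraries went through it. Of 25 immediate-early genes, which such handling also induces, 1 was past 1.5-fold, Gadd45b (1.74, 1.40 to 2.11), and 8 had ratios above 0. Their median was -0.17, with Jun at -0.53, Egr1 at -0.39 and Fos at 0.32. Of the same 25 genes, 2 were past 1.5-fold higher in the stricter set, with a median of -0.06. The inducible nuclear receptor gene Nr4a3, which is not among the 25, was higher at 2.11 (1.6 to 2.7) without the members led by markers of other cells. Of 15 heat shock chaperones none was past 1.5-fold and the median was -0.002. The part of handling in the cytokine values was not tested.

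Genes that the factor NF-kB induces had a median of 0.36, with 6 of 24 past 1.5-fold higher and none lower. These were Tnfaip2 (1.42, 1.10 to 1.77), the survival gene Bcl2a1d (1.31, 1.14 to 1.48, with close copies), the inhibitor Nfkbie (0.95, 0.67 to 1.23), its relative Bcl3 (0.77, 0.45 to 1.09), the fatty acid receptor Gpr84 (0.67, 0.52 to 0.82) and the activation marker Cd83 (0.59, 0.52 to 0.66). The feedback inhibitor Nfkbia was at 662 and 663 CPM, a ratio of 0.00 (-0.07 to 0.07), and the other feedback gene, Tnfaip3, had a ratio of 0.33 (0.22 to 0.45). Over the stricter set, 4 of 24 were past 1.5-fold higher, with a median of 0.29.

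Of 12 genes that the study itself used to describe microglial activation, 9 were past 1.5-fold higher and none lower, with a median of 1.20. All 12 had ratios above 0, and those outside the 9 were within 1.5-fold, the lowest at 0.096. Within the stricter set, 8 of 12 were past 1.5-fold higher, with a median of 0.78. Many genes of that list were named by the study from these libraries, so that the direction of the list is not independent evidence. Those of the 9 not yet described were Cd52, a surface glycoprotein of leukocytes, at 257 CPM (242 to 272) and 728 CPM (705 to 751), which is 1.5 (1.41 to 1.6) as a log2 ratio, Cd74, the invariant chain of MHC class II, at 88.6 CPM (79.9 to 97.9) and 149 CPM (139 to 160.3), which is 0.75 (0.58 to 0.94) as a log2 ratio, and Nes, the intermediate filament gene nestin, at 35.3 CPM (29.9 to 41.4) and 84.5 CPM (76.9 to 92.8), which is 1.26 (0.99 to 1.53) as a log2 ratio.

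**Figure D2:**
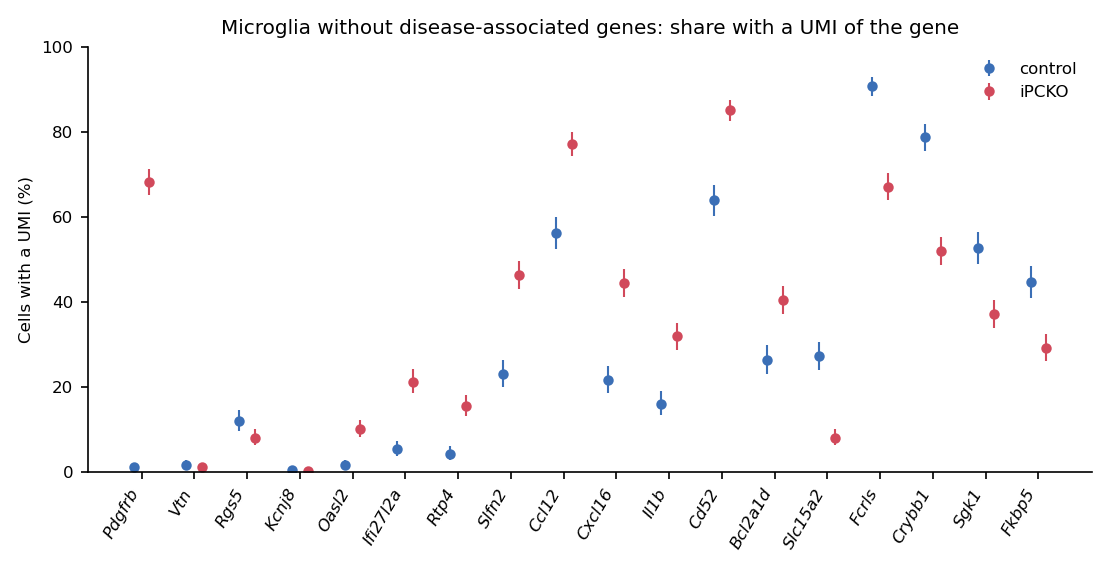
Share of members with at least 1 UMI of each gene (vertical, percent), control in blue and iPCKO in red, with exact 95% intervals that cover counting error only. Pdgfrb goes from 1.01% to 68.3% while Vtn, Rgs5 and Kcnj8 are not more widely seen, the genes from Oasl2 to Bcl2a1d are more widely seen in the iPCKO library, and the genes from Slc15a2 to Fkbp5 less widely.

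Homeostatic genes were lower. The 8 microglia genes of the rule are a description, since the rule required 4 of them: P2ry12 was at 5747 CPM in control and 4065 CPM in iPCKO members (log2 ratio -0.50), P2ry13 at 1119 and 765 CPM (-0.55), Tmem119 at 608 and 426 CPM (-0.51), Cx3cr1 at 3058 and 2365 CPM (-0.37) and Siglech at 1445 and 1216 CPM (-0.25), whereas C1qa was at 1484 and 1533 CPM (0.05). Outside the rule, 36 homeostatic genes were counted, of which 6 were past 1.5-fold lower and 1 higher, with 5 ratios above 0 and a median of -0.30. Summed, they went from 53640 CPM to 42441 CPM.

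Crybb1 (chromosome 5 from 112400811 to 112417965 of GRCm39), a crystallin gene that marks microglia, was at 453 CPM (434 to 474) in control and 194 CPM (183 to 207) in iPCKO members (-1.22, -1.33 to -1.11). Fcrls (chromosome 3 from 87156616 to 87181827), a scavenger receptor of the Fc receptor-like family, was at 585 CPM (562 to 608) and 266 CPM (252 to 280.3), which is -1.14 (-1.23 to -1.04) as a log2 ratio, and the share of cells with a UMI was 90.9% and 67.1%.

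The adhesion receptor Adgrg1 (-0.75, -0.86 to -0.63), the fructose transporter Slc2a5 (-0.74, -0.86 to -0.62) and the lysophosphatidylserine receptor Gpr34 (-0.66, -0.75 to -0.56) were also past 1.5-fold lower. The gene of the list with the most UMIs, Cst3, a secreted cysteine protease inhibitor, was at 17356 CPM (17232 to 17481) and 12098 CPM (12004 to 12193), which is -0.52 (-0.54 to -0.51) as a log2 ratio, and Olfml3, an extracellular matrix protein of microglia, had a ratio of -0.51 (-0.58 to -0.45). Among genes tied to microglial identity, the transcription factor Sall1 had a ratio of -0.12 (-0.21 to -0.04), Mef2c -0.18 (-0.24 to -0.12) and the receptor Tgfbr1 -0.21 (-0.28 to -0.14). The exception past 1.5-fold higher was Cd34, a sialomucin known from blood and vessel cells, at 139 CPM (128 to 151) and 244 CPM (231 to 258), which is 0.81 (0.67 to 0.95) as a log2 ratio. In the stricter set the list had a median of -0.20, with 5 of 36 past 1.5-fold lower, none higher, Cd34 at 0.49, and Fcrls at -0.96 (-1.09 to -0.83) and Crybb1 at -0.94 (-1.09 to -0.79). Per 1500 UMIs, the mean was 80.0 UMIs in control and 63.2 in iPCKO members.

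**Figure D3:**
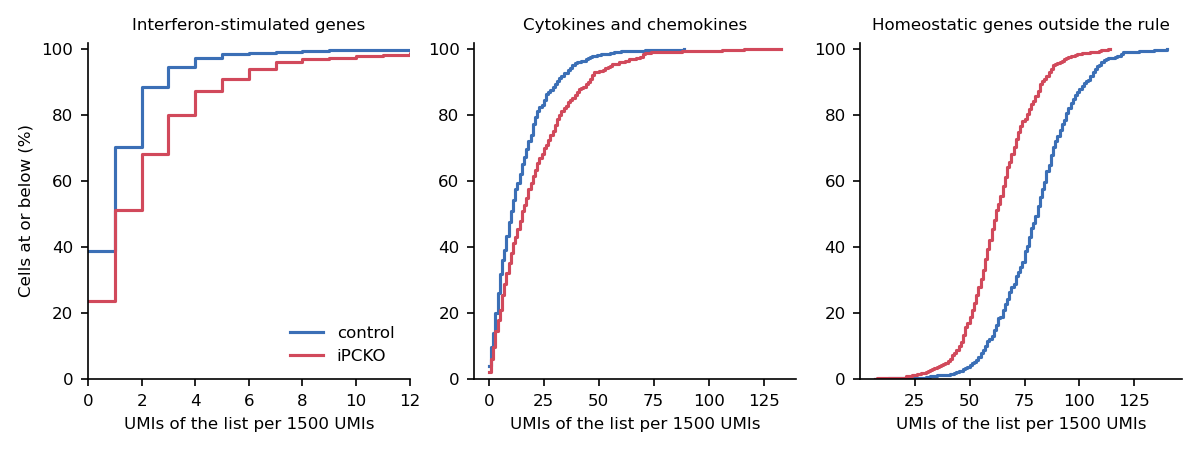
Cumulative share of members (vertical, percent) with at most the given number of UMIs of a list (horizontal) after each cell was thinned to 1500 UMIs (the interferon axis stops at 12), control in blue and iPCKO in red. The iPCKO curve runs to the right of control for interferon-stimulated genes (means 1.17 and 2.27 UMIs) and for cytokines and chemokines (13.8 and 20.2), over most of their range, and to its left for homeostatic genes (80.0 and 63.2).

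Of the disease-associated genes outside the rule, a few were past 1.5-fold in each direction. Of 30 counted, 20 had ratios above 0, with a median of 0.12. Past 1.5-fold higher were 5 (Cybb, Cd52, Csf1, Anxa5 and Fth1), or 16.7% against 4.05% over all genes. Past 1.5-fold lower were 3 (Ank, Fabp5 and Ccl6), or 10% against 3.9% over all genes. Without the members led by markers of other cells, Anxa5 and Fabp5 were within 1.5-fold. Among members with none of the 6, 2 of 24 counted genes (8.33%) were past 1.5-fold higher and 1 (4.17%) lower. Over all genes of that set, 2.91% were higher and 2.85% lower. The median of the list there was 0.10, and Fth1 was within 1.5-fold at 0.51. Trem2, the lipid receptor upstream of the program, was at 868 and 828 CPM, a ratio of -0.07 (-0.13 to -0.00), its adaptor Tyrobp at 1535 and 1597 CPM, a ratio of 0.06 (0.01 to 0.10) and Apoe, a lipid carrier, at 646 and 753 CPM, a ratio of 0.22 (0.15 to 0.29). Lgals3 and Gpnmb, late genes of the program, had at most 2 UMIs in either library. Fth1, the ferritin heavy chain, was at 1093 CPM (1062 to 1125) and 1810.2 CPM (1774 to 1847), which is 0.73 (0.68 to 0.78) as a log2 ratio, in 96.4% and 98.5% of members. The rule took out cells with 2 or more of the 6 genes, so levels of genes found in the same cells depend on it.

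Receptors for Nodal and its relatives were near the control. Of 16 counted genes of the Nodal, activin and TGF-beta receptor and Smad list, none was past 1.5-fold higher and 1 lower, with a median of -0.04. Acvr2b, a type II activin receptor, was at 18.4 CPM (14.5 to 22.9) in control and 8.57 CPM (6.25 to 11.5) in iPCKO members (-1.09, -1.66 to -0.55). The other type II receptor, Acvr2a (0.14, -0.28 to 0.57), and the type I receptor Acvr1b (-0.16, -0.66 to 0.34) had intervals that include 0. The signal carriers Smad2 (-0.22, -0.45 to 0.01), Smad3 (-0.07, -0.29 to 0.14) and Smad4 (0.08, -0.11 to 0.26) lay within 1.5-fold. The co-receptor Tdgf1 had 0 UMIs in both libraries, which at a limit of 3 UMIs allows up to 0.697 CPM in control and 0.571 CPM in iPCKO members. The type I receptor Acvr1c had 4 UMIs in control and 0 in iPCKO members. Of 13 counted TGF-beta ligands and response genes, Id2 was past 1.5-fold higher (0.79, 0.71 to 0.87) and Gdf15 lower (-0.97, -1.26 to -0.69, with 27.1% of its iPCKO UMIs in 1 cell), with a median of 0.02, and Tgfb1 had a ratio of -0.43 (-0.60 to -0.26) and the feedback inhibitor Smad7 of -0.01 (-0.18 to 0.17). Over the stricter set, no gene of the receptor list (14 counted) was past 1.5-fold, Acvr2b being under the count minimum with a ratio of -0.78 (-1.59 to -0.05), and Id2 was within 1.5-fold at 0.56 while Gdf15 was at -1.75.

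Several genes of cholesterol synthesis were higher. Of 21 counted genes, 6 were past 1.5-fold higher and none lower, with a median of 0.42. Sqle, the squalene epoxidase, was at 14.9 CPM (11.5 to 19) in control and 31 CPM (26.5 to 36.2) in iPCKO members, which is 1.05 (0.64 to 1.5) as a log2 ratio. Hsd17b7, a later enzyme, was at 9.99 CPM (7.23 to 13.5) and 25.5 CPM (21.4 to 30.2), which is 1.34 (0.85 to 1.88) as a log2 ratio. The isomerase Idi1 (0.67, 0.41 to 0.94) and the sterol carrier Stard4 (0.76, 0.47 to 1.07) were also among the 6, and all 4 named here are known targets of the sterol-regulated factor Srebf2. Within the stricter set, 8 of 14 counted genes were past 1.5-fold higher and none lower, with a median of 0.66. It was 0.70 in disease-associated-like microglia, 0.13 in astrocyte-like, -0.03 in endothelial-like and -0.10 in pericyte-like cells, over 13, 24, 22 and 14 counted genes. The letters TCACNCCAC of the sterol response element were in 388 of 27025 promoter windows (1.44%) and in neither of the 2 windows found for the 6 genes. Of 16 counted genes of lipid efflux and storage, Fabp5 was past 1.5-fold lower and Pltp higher, the latter with 33.3% of its iPCKO UMIs in 1 cell. Without the members led by markers of other cells, Fabp5 and Pltp were within 1.5-fold. In the stricter set none of the 12 counted was past 1.5-fold.

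Genes that glucocorticoids induce were lower for a few members of the list. Of 15 counted, 3 were past 1.5-fold lower and none higher, with a median of -0.18. Sgk1 (chromosome 10 from 21758083 to 21875802 of GRCm39), a serum- and glucocorticoid-regulated kinase, was at 229 CPM (215 to 244) in control and 103 CPM (94.3 to 112) in iPCKO members (-1.16, -1.31 to -1.0). Fkbp5, a co-chaperone of the glucocorticoid receptor, was at 119 CPM (109 to 129.8) and 61 CPM (54.6 to 68.2), which is -0.96 (-1.17 to -0.76) as a log2 ratio, and Per1, also a clock gene, had -0.63 (-0.79 to -0.47). Among members with none of the 6, 3 of 14 counted genes were past 1.5-fold lower and 1 higher, with Sgk1 at -1.01, Fkbp5 at -0.69 and Per1 at -0.68. In endothelial-like cells Sgk1 was at -0.08 and Fkbp5 at 0.08, and in astrocyte-like cells at -0.46 and -0.39. Of 13 counted genes of the circadian clock, Per1, Tef (-0.61) and Ciart (-0.87) were past 1.5-fold lower and none higher, with a median of -0.21. Over the stricter set, 1 of 6 counted was past 1.5-fold lower, and Tef (-0.54) was within it. The time of day at which the mice of each library were taken is not given in the sources used here.

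Cells with cell cycle genes were found in both libraries. UMIs of at least 2 of 20 cell cycle genes were present in 10.1% (7.96 to 12.6%) of control and 12.5% (10.4 to 14.9%) of iPCKO members, and the intervals overlap. Of 33 counted cell cycle genes 7 were past 1.5-fold higher (Cenpe, Ccnb1, Ube2c, Ccna2, Birc5, Ccnb2 and Uhrf1), with a median of 0.36. Within the stricter set, 1 of 19 counted genes was past 1.5-fold higher and 1 lower, with a median of 0.04, and the median over members was 0.01 without the cells counted as cycling. The 20 genes that define cycling cells belong to this same list, so the last value follows in part from the selection. Of 14 D-type cyclins and cell cycle brakes, Ccnd3 (-0.99, -1.25 to -0.73) and Ccng2 (-0.74, -0.94 to -0.53), an atypical cyclin of resting cells, were past 1.5-fold lower. In the stricter set 3 of 14 were lower, with Ccnd3 at -0.67 and Ccng2 within 1.5-fold at -0.49.

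Antigen presentation differed for a few genes. Of 17 counted genes of MHC class I, 3 were past 1.5-fold higher, the nonclassical H2-Q7 (1.54, 1.17 to 1.95), H2-Q6 (1.53, 1.19 to 1.89) and H2-M3 (0.65, 0.26 to 1.06), with a median of 0.18. H2-Q6 and H2-Q7 are near-identical copies, so the division of UMIs between them is uncertain. B2m, the shared light chain, was at 2341 and 2925 CPM, a ratio of 0.32 (0.29 to 0.36). Of 3 counted genes of MHC class II, Cd74 and H2-DMa (0.61, 0.40 to 0.83) were past 1.5-fold higher. Among members with none of the 6, H2-Q7 (1.40), H2-Q6 (1.36) and Cd74 (0.75) were past 1.5-fold higher, and H2-M3 (0.47) and H2-DMa (0.53) were within it.

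Growth factors and trophic ligands had 4 of 15 counted genes past 1.5-fold higher and none lower, and no iPCKO cell held more than 3.18% of the UMIs of 3 of the 4. These were Csf1, Pdgfa, a ligand for receptors of oligodendrocyte precursors, at 27.9 CPM (23.1 to 33.4) and 65.3 CPM (58.6 to 72.6), which is 1.22 (0.92 to 1.54) as a log2 ratio, and Tnfsf13b, the B-cell factor BAFF, at 4.65 CPM (2.84 to 7.18) and 16.9 CPM (13.6 to 20.9), which is 1.84 (1.15 to 2.64) as a log2 ratio. Tnfsf13b was seen in 2.45% and 8.8% of members. The other was Igf2. Over the stricter set, 3 of 13 counted genes were past 1.5-fold higher. Of 27 genes of motility and the cytoskeleton, Itgal, Ezr (1.32), Nes and Vim were past 1.5-fold higher, Vim with 34.6% of its iPCKO UMIs in 1 cell. Within the stricter set, 1 of 24 counted was, Nes (1.34), and Itgal and Ezr were under the count minimum. Of 29 genes of haem, iron and oxidative stress, Cp, Cybb, Fth1 and the iron importer Slc11a2 (0.61, 0.38 to 0.85) were past 1.5-fold higher, and the iron exporter Slc40a1 (-0.68, -0.89 to -0.48) and the iron regulator Hfe (-0.62, -0.82 to -0.42) lower. In the stricter set none of 23 counted genes was past 1.5-fold higher and 1, Hfe (-0.60), was lower, with a median of -0.13. There Fth1 (0.51) and Slc11a2 (0.36) were within 1.5-fold, and Cp and Cybb were under the count minimum.

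Phagocytosis and lysosomal genes were close to the control. Of 27 counted complement and phagocytosis genes, the anaphylatoxin receptor C5ar1 (0.59, 0.46 to 0.72) and the activating Fc receptor Fcgr4 (0.81, 0.20 to 1.47) were past 1.5-fold higher and Mertk (-0.63, -0.72 to -0.55), a receptor for apoptotic cells related to Axl, lower, with a median of -0.07. Of 38 lysosomal genes, Ctsh (0.68, 0.55 to 0.81) alone was past 1.5-fold higher and none was past 1.5-fold lower, with a median of 0.02. Of 8 purinergic and adenosine receptors outside the rule, P2rx4 (0.67, 0.28 to 1.09) was past 1.5-fold higher and Gpr34 lower. Among members with none of the 6, C5ar1 (0.73) was past 1.5-fold higher, while Mertk (-0.46), Ctsh (0.45), P2rx4 (0.37) and Gpr34 (-0.49) were within it. Fcgr4 was under the count minimum there. No gene of glycolysis and the HIF response (19 counted, median -0.02) was past 1.5-fold. Of 53 nuclear-encoded genes of oxidative phosphorylation none was past 1.5-fold either, although 46 had ratios above 0 and the median was 0.21.

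The same lists were read in other cells of the same 2 libraries. The count minimum was applied within each group, so the genes counted differ. The median of the interferon-stimulated genes was 0.56 in disease-associated-like microglia (52 control and 383 iPCKO cells), 0.34 in astrocyte-like cells (666 and 769), -0.01 in endothelial-like cells (776 and 1426) and 0.45 in pericyte-like cells. These medians cover 22, 14, 29 and 19 counted genes. All-gene medians in these 4 groups lay between -0.03 and 0.002. Cxcl10 was higher in astrocyte-like (3.48) and pericyte-like cells (3.20) as well as in members. For cytokines and chemokines the medians were 0.53 in disease-associated-like microglia, 0.08 in astrocyte-like, 0.87 in endothelial-like and 1.68 in pericyte-like cells, over 5, 9 and 7 counted genes in the last 3 groups. The difference between groups of cells was not tested, since each rests on the same 2 libraries. Nkain2, a gene of a sodium pump interacting protein that was singled out after its values were seen, was lower in members (-0.81) and in the 4 other groups, at -0.83 in disease-associated-like microglia, -0.69 in astrocyte-like, -0.81 in endothelial-like and -0.84 in pericyte-like cells.

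**Figure D4:**
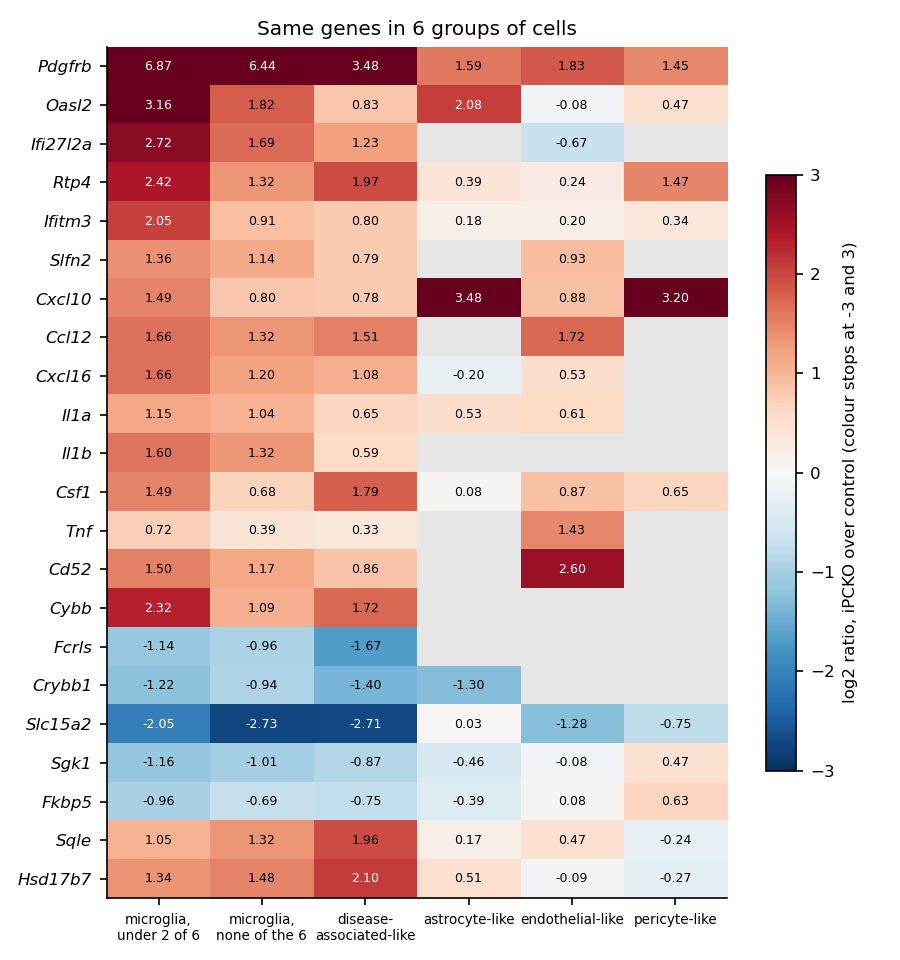
Log2 ratio (iPCKO over control, colour and number) of 22 genes in 6 groups of cells, members in the first column, with grey where fewer than 20 UMIs were present over both libraries. Fcrls, Crybb1, Slc15a2 and the interferon genes Oasl2 to Slfn2 keep their sign across the 3 columns of microglia, and Sgk1 and Fkbp5 are below 0 there and in astrocyte-like cells, near 0 in endothelial-like cells and above 0 in pericyte-like cells.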

How the data were processed

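Cells of P12 cortex were captured and barcoded with BD Rhapsody whole-transcriptome beads, 1 library of 2 pooled mice per genotype. The deposited matrices hold expected counts (estimated UMI counts per gene and barcode) that the authors made with STAR 2.7.10a in STARsolo mode on GRCm39, with reads shared by several genes divided by expectation maximisation, so that about 9% of entries are not whole. Such division makes values of near-identical genes uncertain. Sources differ on the Gencode release used.

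From these counts, members were selected by the rule given above, with a gene detected at a rounded count of at least 1, and UMIs were summed over members per library. No doublet caller was run; the limit on other-cell genes stands in for it. Ratios use an offset of 0.5 UMIs, with conditional exact intervals (scipy 1.17.1, numpy 2.4.6, pandas 2.3.3, python 3.11.15), and shares use Clopper-Pearson intervals. Genes with at least 100 UMIs over both libraries were counted, and 1.5-fold (2-fold as a stricter limit) stands in for a call, since 1 library per genotype allows no test. The study's own pseudoreplicates of cells were not used. Thinning to 1500 UMIs used 1 seeded draw, or 20 for the share of members, since 1 draw proved noisy there. Totals were 33889545 UMIs in the control and 54791946 in the iPCKO library.

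Named genes were the 12 with the highest lower and the 12 with the lowest upper bound, the genes of 26 lists, and the genes of the rule; some others were singled out after seeing the data, and the text says so. The members and lists were chosen with earlier results of these data known. The ratios and their intervals were tested on simulated sums of UMIs that varied by counting error only. The choice of members and the spread between cells were not simulated. Alternatives were tried for cell limits, cycling cells, scaling and gene minimum, and 4 more were added after seeing the data. The 4 lung libraries were not used here. Some genes of the lists are counted but not reported here by name.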

Additional observations from a re-analysis of the deposited data

How the results depend on the processing

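Leaving out a replicate was not possible with 1 library per genotype. No paired analysis was possible because each genotype has 1 library. Of 114 named genes, 101 had the same direction and 55 stayed past 1.5-fold in every one of 14 other settings run for genes. Results moved most with the limit on the 6 disease-associated genes. With none of the 6 detected, 189 genes were past 1.5-fold higher and 185 lower, and list medians were -0.20 for homeostatic genes, 0.78 for the study's activation genes, 0.31 for cytokines and chemokines, -0.059 for immediate-early genes, 0.076 for heat shock chaperones, 0.66 for cholesterol synthesis, -0.13 for haem and iron, 0.037 for the cell cycle and 0.079 for motility. Of single genes, Mbp (0.062), Vim (-0.25) and Xaf1 (-0.077) changed direction there. With no limit on the 6, 514 genes were past 1.5-fold higher and 546 lower, and the medians were -0.39 for homeostatic, 0.25 for disease-associated, 0.88 for cytokine and 0.65 for cell cycle genes. With the limit set after thinning, members were 99.1% of control and 90.7% of iPCKO microglia as means of 20 draws. In the 1 draw used for gene values, which kept 736 and 1138 members, the cell cycle median was 0.66.

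With at most 2 UMIs over a wider marker list, which holds Pdgfrb and so removes iPCKO cells unevenly (352 control and 315 iPCKO cells remained), medians were 0.89 for cytokines, -0.15 for TGF-beta response, 0.89 for the cell cycle and -0.45 for purinergic receptors, and Col1a1 (-0.85), Col1a2 (-0.062), Igf2 (-2.09), Mbp (0.047), Nnat (-2.58), Pltp (-0.077), Ugt8a (0.81) and Vim (-0.42) changed direction. Without cycling cells the cell cycle median was 0.013 and Ccna2 was at -0.24. As a mean of each cell's CPM, the motility median was 0.11. With a gene minimum of 30 UMIs, 797 genes were past 1.5-fold higher and 869 lower and the interferon median was 1.36; with a minimum of 300 UMIs, 149 and 112 were, and the haem and iron median was -0.043. Settings added after seeing the data changed the direction of Cldn11 (0.41) and Mbp (0.090) when each gene lost its highest cell, and of Mbp (0.14), Ugt8a (0.30) and Vtn (-0.90) without the 7 members led by other-cell markers. Median-of-ratios scaling gave 378 higher and 299 lower genes. Apart from the construction of these settings, the cause of the moves was not tested. Depth limits genes under 100 UMIs.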
